A study of Mus musculus with 3 samples.

Results

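*Bmp1*, *Sult1d1*, *Ryr2* and *Phka1* are 4 of the 50686 genes in the count table. They were chosen on their level in 3 kinase inactive cell lines, because the range between the lines was among the largest in the table. That range between lines is therefore a description of how the genes were picked, and no test was made on it. Poly(A) RNA was sequenced from 3 stable BCR::ABL1+ lines of bone marrow from C57BL/6 mice, all homozygous for CDK6-K43M (*Cdk6*KM/KM), a CDK6 without kinase activity. A retroviral vector for BCR-ABL(p185) with a GFP marker transformed the cells, which the labels call Pre/Pro-B-cells, and the lines grew out of the transduced cultures. The lines share genotype, vector and medium, and each is represented by 1 library. Whether a line is 1 clone is not given in the sources used here. Wild-type and knockout lines were not analysed here, so a difference between genotypes was not tested and each value describes the kinase inactive lines alone.

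The 4 genes have little to do with B cells in textbook biology. *Bmp1* encodes a secreted zinc metalloprotease that cleaves the C-terminal propeptides of fibrillar procollagens and also the BMP antagonist chordin. *Sult1d1* encodes a cytosolic sulfotransferase that transfers sulfate from the donor PAPS to small phenolic compounds such as catecholamines. *Ryr2* encodes the ryanodine receptor of heart muscle, a very large calcium channel of the sarcoplasmic reticulum. *Phka1* encodes the muscle form of the alpha subunit of phosphorylase kinase, the enzyme complex that switches on glycogen breakdown. Early B-lineage cells, in contrast, are recognised by the surrogate light chain, the recombinase genes and the transcription factors PAX5 and EBF1.

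Libraries held 19633463 to 25773221 counts on genes. A floor of 3 counts was used for a count of 0, or 0.118 to 0.152 counts per 1000000 counts (CPM) after TMM scaling. All intervals given cover counting error only. The 13 B-lineage markers examined reached at least 1 CPM in a line in every case and summed to 4148, 4639 and 4416 CPM in lines 1, 2 and 3. *Cdk6* itself had 6096 to 9757 counts, which do not show the mutated codon. Line 3 stood apart at sex-linked genes, with 1350 counts of *Xist* against 18 and 15 in lines 1 and 2, and with 1 count of the Y-linked *Eif2s3y* against 1863 and 427. *Kdm5d* and *Uty*, also Y-linked, had 954, 1135 and 2 counts and 530, 666 and 3 counts in lines 1, 2 and 3, while *Ddx3y* had 2, 2 and 3 counts. Each contrast of line 3 with lines 1 and 2 is thus also a contrast in this sex-linked pattern. The part of donor sex in the levels was not tested. All 4 genes were highest in this line. Without line 3, none of the 4 reached a mean of 5 CPM, and 0 of them were among the 10 genes with the largest range.

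All 4 genes lie on the minus strand and on 4 different chromosomes of mm10. *Bmp1* (ENSMUSG00000022098.9) spans 70474558 to 70520234 on chromosome 14, *Sult1d1* (ENSMUSG00000029273.10) 87554645 to 87569027 on chromosome 5, *Ryr2* (ENSMUSG00000021313.15) 11553102 to 12106945 on chromosome 13 and *Phka1* (ENSMUSG00000034055.16) 102513975 to 102644246 on the X chromosome. The RefSeq table (GRCm38.p6, the same assembly) held a promoter for 3 of the 4 genes, and none for *Bmp1*. The 250 bases before each RefSeq start are shown because the genes that follow them were high in the same line, with every CpG in capitals. For *Sult1d1* the RefSeq start lies inside the span given above, so the bases from 87569007 to 87569027 fall within that span.

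Sult1d1 (chr5:87569007-87569256, minus strand): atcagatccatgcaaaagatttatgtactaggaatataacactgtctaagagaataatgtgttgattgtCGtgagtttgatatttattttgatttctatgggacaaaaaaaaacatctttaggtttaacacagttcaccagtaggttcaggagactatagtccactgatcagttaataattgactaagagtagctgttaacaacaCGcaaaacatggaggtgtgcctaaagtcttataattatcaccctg
Ryr2 (chr13:12106946-12107195, minus strand): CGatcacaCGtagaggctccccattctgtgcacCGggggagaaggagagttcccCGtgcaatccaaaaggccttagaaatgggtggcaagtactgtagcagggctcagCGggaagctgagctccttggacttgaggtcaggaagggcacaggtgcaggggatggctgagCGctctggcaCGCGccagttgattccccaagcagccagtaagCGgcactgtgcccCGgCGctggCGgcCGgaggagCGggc
Phka1 (chrX:102644247-102644496, minus strand): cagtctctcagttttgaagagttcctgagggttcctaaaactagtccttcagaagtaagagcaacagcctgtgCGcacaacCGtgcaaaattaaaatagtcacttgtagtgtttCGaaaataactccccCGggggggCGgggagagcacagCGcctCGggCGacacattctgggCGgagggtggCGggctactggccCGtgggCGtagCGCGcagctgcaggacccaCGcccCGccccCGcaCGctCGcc

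The 3 promoters differed in base composition. The *Sult1d1* stretch held 2 CpGs at 34% G and C, the *Ryr2* stretch 14 CpGs at 63.2% and the *Phka1* stretch 19 CpGs at 60%. The median over 32851 RefSeq promoters was 6 CpGs, with quartiles of 2 and 16. Fewer CpGs than in the *Sult1d1* stretch were found in 18.8% of promoters, against 70.6% for *Ryr2* and 80.3% for *Phka1*. Short motifs were searched on both strands. The GC box, GGGCGG, occurred in 32.7% of all promoters. *Phka1* had 3 GC boxes, with first bases 116, 79 and 19 bases before the start, and each of them contains a CpG shown in capitals. The TATA box, TATAAA, occurred in 12.4% of promoters, and the sequence CCAAT, known as the CCAAT box, in 33.8%. The E-box, CACGTG, was in 6.02% of promoters. The STAT site, TTCNNNGAA, was in 7.02%. These letters were not in the 3 windows shown, apart from the GC boxes of *Phka1*. A match or its absence describes the sequence only.

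*Bmp1* was the gene with the largest range between lines in the data. It was read 3 times in line 1, 10 times in line 2 and 5619 times in line 3. These counts correspond to 0.138, 0.507 and 221 CPM. The level in line 3 was 1596-fold that of line 1 (95% counting interval 546 to 7742) and 435-fold that of line 2 (interval 237 to 909). Lines 1 and 2 were both close to the limit of detection, and line 3 stood far above them. In bulk RNA, a larger share of expressing cells and more RNA per cell cannot be told apart.

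*Sult1d1* had 107 counts in line 1, 10 in line 2 and 3557 in line 3, at levels of 4.93, 0.507 and 140 CPM. Line 3 was 28.3-fold above line 1 (95% counting interval 23.4 to 34.7) and 276-fold above line 2 (interval 150 to 575). The sulfotransferase was thus not silent in line 1, where its level was 3.53% of that in line 3. The counting intervals were 4.04 to 5.96 CPM in line 1 and 0.243 to 0.932 CPM in line 2. The gene was chosen by its range between these lines, so nothing is read from their distance.

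*Ryr2* had 0 counts in line 1, 153 in line 2 and 1474 in line 3, at levels of 0, 7.75 and 57.9 CPM. Line 2 also expressed this calcium channel gene, at 13.4% of the level of line 3. Line 3 was 7.47-fold above line 2 (95% counting interval 6.32 to 8.88) and 419-fold above a floor of 3 counts in line 1. The level of line 2 lay between those of the other lines.

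*Phka1* was read in line 3 alone, with 1273 counts or 50.0 CPM (95% counting interval 47.3 to 52.8). Lines 1 and 2 had 0 counts, with 95% counting intervals up to 0.170 and 0.187 CPM. Line 3 was 362-fold above a floor of 3 counts in line 1 and 329-fold above the same floor in line 2. Folds from this floor, also that of *Ryr2* over line 1, take the count of line 3 as exact and carry no interval. They are not lower bounds, since the intervals of the lines with 0 counts reach above the floor. Of the 9389 genes with a mean of at least 5 CPM, 5 had all of their reads in line 3, *Phka1* with the most counts among them.

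**Figure D1:**
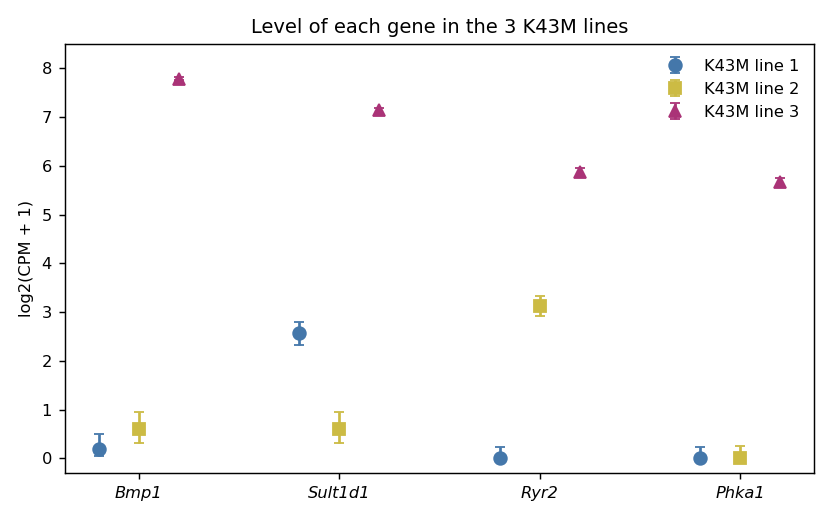
Level of *Bmp1*, *Sult1d1*, *Ryr2* and *Phka1* in K43M lines 1, 2 and 3, as log2(CPM + 1) on the vertical axis; each point is 1 library and the bars are 95% Poisson intervals of the count. Line 3 lies highest for all 4 genes, *Sult1d1* has a middle level in line 1 (4.93 CPM) and *Ryr2* in line 2 (7.75 CPM).

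Over the 3 lines, the SD exceeded the mean for every member. *Bmp1* had 73.7 ± 127 CPM, *Sult1d1* 48.4 ± 79.1 CPM, *Ryr2* 21.9 ± 31.4 CPM and *Phka1* 16.7 ± 28.9 CPM (SD, n = 3 each). The label of genes switched on in a single line was met to different degrees. Line 3 held 100% of the summed CPM of *Phka1*, 99.7% of that of *Bmp1*, 96.3% of that of *Sult1d1* and 88.2% of that of *Ryr2*. Per kilobase of merged exons, the level in line 3 was 56.8 CPM for *Sult1d1*, 24.9 CPM for *Bmp1*, 7.98 CPM for *Phka1* and 2.01 CPM for *Ryr2*. The order by length therefore differed from the order by CPM, in which *Bmp1* was first and *Phka1* last. The exons of *Ryr2* merge to 28790 bases and those of *Sult1d1* to 2459 bases.

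By range of log2(CPM + 1), *Bmp1* ranked 1, *Sult1d1* 4, *Ryr2* 7 and *Phka1* 9 among 9389 genes, with ranges of 7.60, 6.54, 5.88 and 5.67. The median range of these genes was 0.29. Just outside the 10 largest ranges was *Igkc*, with 5.59. A gene was called high in a line if this line had at least 1 CPM and at least 4 times the level of the next line, with a next line under 3 counts set to this floor. By this rule all 4 members were high in line 3, where 229 of 13974 genes, or 1.64%, were called. The rule is of the same kind as the choice of members, so nothing is read from their count. The same rule called 28 genes, or 0.2%, in line 1 and 79 genes, or 0.565%, in line 2. *Sult1d1* was also called low in line 2 and *Ryr2* low in line 1, at least 4-fold below the next line, as were 0.143% and 0.615% of genes. In line 3, 0.694% of genes were low and 0 of them was a member.

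**Figure D2:**
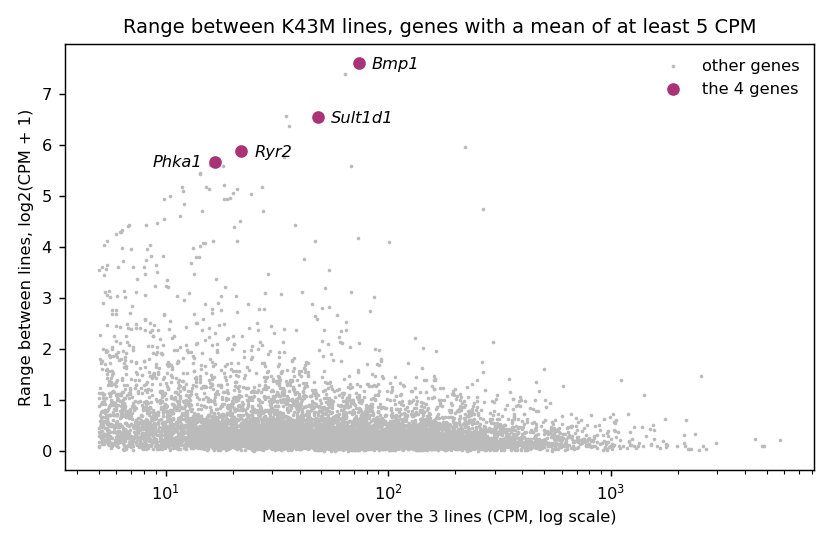
Range between the 3 K43M lines in log2(CPM + 1), on the vertical axis, against the mean level in CPM on a log scale for 9389 genes with a mean of at least 5 CPM; each point is a gene. The 4 genes, in purple, have ranges from 5.67 to 7.60, against a median of 0.29 over all of these genes.

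Counts shared with other loci were looked for in the longest annotated transcript of each gene. Of its stretches of 50 bases, the read length in the labels, 0 were found in transcripts of other genes for *Bmp1*, *Sult1d1* and *Phka1*. For *Ryr2*, 14 of 16765 stretches, or 0.0835%, occurred in other genes. No annotated gene overlapped *Bmp1*, *Sult1d1* or *Phka1*, and *Ryr2* overlapped the pseudogene *Gm26956* on the opposite strand, which had 5, 12 and 7 counts in lines 1, 2 and 3. Counts per gene do not show which exons or which start site were read.

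Genes around the members were compared between lines to see whether a whole stretch of chromosome was shifted with each member. Neighbours are genes with a mean of at least 1 CPM whose start lies within 1 Mb of that of the member. The shift is the log2(CPM + 1) of line 3 minus the mean of lines 1 and 2, and had a median of 0.0035 over all 11018 genes of this level. Neighbours were not used to choose the members, but with 1 library a line no test between lines was made.

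Around *Bmp1*, the 19 neighbours had a median shift of -0.16, against 7.40 for *Bmp1*. None of them was high or low in a single line by the 4-fold rule. Among 45 genes within 5 Mb, 8 were highest in line 3, and their median shift was -0.16. *Sftpc*, the surfactant gene whose end lies 0.715 kb beyond the start of *Bmp1*, had 0 counts in every line, as had *Lgi3* 10.5 kb away. *Phyhip* on the other side, at 5.73 kb, had 0, 0 and 2 counts. The nearest expressed genes were at like levels in all lines. *Reep4*, which encodes a protein of the endoplasmic reticulum, had 95.0, 94.2 and 84.9 CPM in lines 1, 2 and 3, and *Polr3d*, a subunit of RNA polymerase III, had 55.7, 46.6 and 59.7 CPM. *Slc39a14*, *Piwil2*, *Nudt18* and *Fam160b2*, the next expressed genes, had shifts from -0.34 to 0.63. The largest shifts within 1 Mb were those of *Dok2*, an adaptor of tyrosine kinase signalling, with 4.10, 2.03 and 14.9 CPM, and of *Gfra2*, a GDNF family receptor, with 91.0, 145 and 41.0 CPM. These last were named after their values were seen.

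Around *Sult1d1*, most genes were silent in all lines. Of 39 coding genes within 1 Mb, 32 had 0 counts in every line and 35 stayed under 1 CPM. Its family members on both sides were among them. *Sult1b1*, 16.5 kb away, had 0, 0 and 4 counts and *Sult1e1*, the estrogen sulfotransferase, 6.94 kb away, had 0 counts. *Csn1s1*, a casein gene, had 1, 2 and 4 counts. The nearest expressed genes lay far off, with *Ythdc1* on one side and *Jchain* at 959 kb, *Utp3* at 985 kb and *Rufy3* at 996 kb on the other. These 4 neighbours had a median shift of -0.12, against 5.56 for *Sult1d1*, and 0 of 4 were highest in line 3. Line 1 was highest for all 4, as for *Jchain* with 19.5, 8.51 and 11.0 CPM. Without line 1 the median shift of the neighbours was 0.17. *Stap1* and *Uba6*, farther out, were also highest in line 1, with shifts of -0.16 and -0.30. Among 23 genes within 5 Mb, 20 were highest in line 1 and 2 in line 3, and their median shift was -0.22. The share of all genes highest in line 1 was not computed, so nothing is read from the counts for line 1.

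Around *Ryr2*, all 6 neighbours were lowest in line 1, as was the member, and 3 were highest in line 3. *Mtr*, the methionine synthase gene 151 kb away, had 39.5, 61.4 and 87.2 CPM in lines 1, 2 and 3. *Heatr1*, a ribosome biogenesis gene, had 216, 317 and 351 CPM, and *Lgals8*, which encodes a galectin, had 14.1, 28.8 and 27.6 CPM. The median shift of the 6 neighbours was 0.43, against 4.31 for *Ryr2*. It was 0.04 without line 1 and 0.79 without line 2. Among 22 genes within 5 Mb, 18 were highest in line 3 and 16 lowest in line 1, and their median shift was 0.74. For genes lowest in line 1 the share over all genes was not computed, so nothing is read from those counts. On the lower side, the nearest expressed genes were *Zmynd11* at 2342 kb, *Dip2c* and *Larp4b*, with shifts of 0.90, 0.31 and 0.46. *Chrm3*, a muscarinic receptor gene, had 1 count in line 3, and *Actn2*, the muscle alpha-actinin gene between *Ryr2* and *Heatr1*, had 0 counts in all lines.

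Around *Phka1*, the neighbours were also higher in line 3. Of 9 neighbours, 7 were highest there, and the median shift was 0.85, against 5.67 for *Phka1*. *Hdac8*, a histone deacetylase gene whose body ends 8.62 kb from that of *Phka1*, had 19.0, 26.2 and 44.8 CPM in lines 1, 2 and 3. *Rps4x*, which encodes a ribosomal protein, had 303, 311 and 555 CPM, and *Ercc6l* had 61.3, 76.5 and 124 CPM. On the other side the nearest expressed gene was *Xist*, the RNA that coats the inactive X chromosome, 839 kb away, with 0.829, 0.76 and 53.0 CPM. *Xist* was the neighbour within 1 Mb that was high in line 3 alone by the 4-fold rule. *Jpx*, a regulator of *Xist*, had 1.93, 1.72 and 2.55 CPM, and *Gm38020* had 0.737, 0.861 and 3.10 CPM. Among 48 genes within 5 Mb, line 3 was highest for 40, and their median shift was 0.79. The part of the X chromosome's state in the levels of *Phka1* and its neighbours was not tested. These neighbours were set beside all genes and not beside X-linked genes as a whole. Of other X-linked genes, for example, *Emd* had a shift of 1.28 and *Fmr1* a shift of -0.03. A shift particular to this stretch is therefore not shown. The coding genes that follow *Phka1* on the side of *Xist*, *Gm3880*, *Gm9112* and *Dmrtc1b*, had 0 counts in all lines.

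Set side by side, the members exceeded the median of their neighbours within 1 Mb by 7.57 for *Bmp1*, 5.68 for *Sult1d1*, 4.82 for *Phka1* and 3.89 for *Ryr2* on the log2(CPM + 1) scale. The members were chosen for their range between these lines, so such an excess follows from the choice and nothing is read from it. Line 3 was the highest line for 37.1% of all genes with a mean of at least 1 CPM. This share was 26.3% around *Bmp1*, 0% around *Sult1d1*, 50% around *Ryr2* and 77.8% around *Phka1*. These shares, of 19, 4, 6 and 9 neighbours, differed, while the 4 members were all highest in line 3. Without line 1 the median shift went from -0.12 to 0.17 around *Sult1d1* and from 0.43 to 0.04 around *Ryr2*. It was then -0.09 around *Bmp1* and 0.75 around *Phka1*. Of the 10 genes with the largest range, members included, 8 were highest in line 3, so this is not particular to the members. Whether copy number had a part in any of the levels was not tested, since counts per gene hold no DNA measurement.

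**Figure D3:**
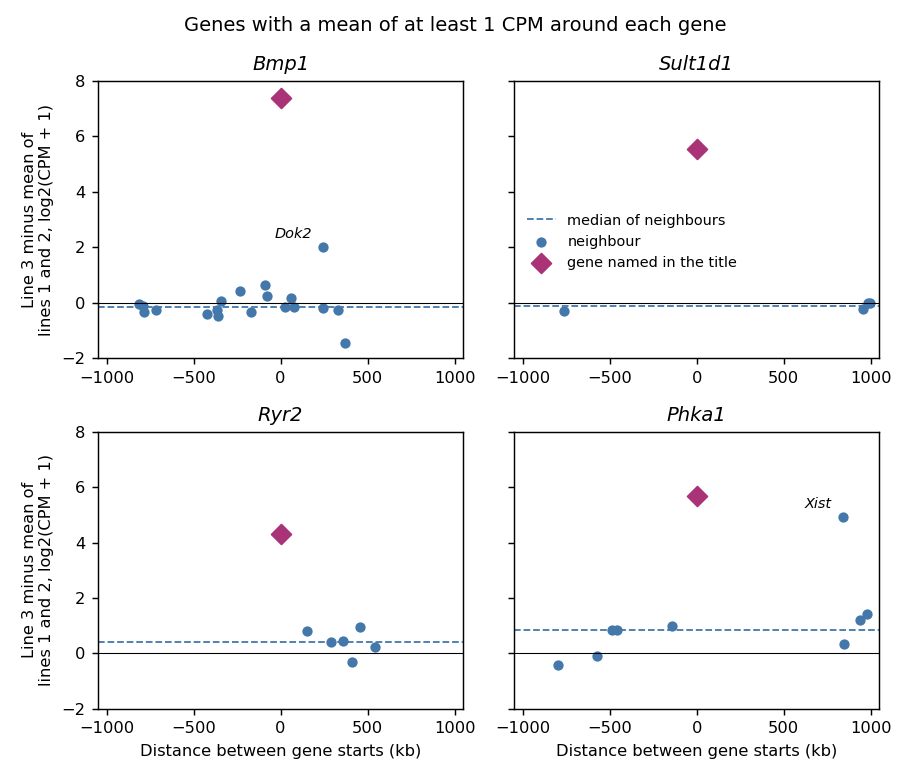
Line 3 minus the mean of lines 1 and 2 in log2(CPM + 1), on the vertical axis, for each gene with a mean of at least 1 CPM whose start lies within 1 Mb of *Bmp1*, *Sult1d1*, *Ryr2* or *Phka1*, by distance in kb (positive toward higher coordinates); the diamond is the named gene, circles are neighbours and the dashed line is their median. The medians are -0.16, -0.12, 0.43 and 0.85, and apart from *Xist* at 4.91 next to *Phka1* and *Dok2* at 2.01 next to *Bmp1* all neighbours lie below 1.5.

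Relatives and partners of each member were then examined, in lists chosen with earlier results of these data known. They contain 72 genes without the members, 34 of them with at least 1 CPM in a line. The 4-fold rule could be applied to the 36 of them with at least 10 counts over the lines, of which 0 were high in a single line and 1 was low. Over all 13974 genes with as many counts, 2.4% were high and 1.45% low. Values are for lines 1, 2 and 3 in this order.

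In the *Bmp1* list, the proteases and their substrates were almost all absent. Of 13 genes, 10 had 0 counts in every line. These include *Tll1*, the tolloid-like paralog, the procollagen genes *Col1a1*, *Col1a2* and *Col3a1*, the antagonist gene *Chrd* and the ligand genes *Bmp2*, *Bmp4* and *Bmp7*. The other paralog, *Tll2*, had 0, 1 and 0 counts. *Pcolce2*, which encodes an enhancer of procollagen cleavage, reached 1.47, 0.507 and 3.42 CPM. It was the gene of the list with at least 1 CPM, while the enhancer gene *Pcolce* had 2, 1 and 0 counts.

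In the sulfotransferase list, *Sult1d1* had more counts than any other transferase in line 3, where it was highest, whereas in line 2 its 10 counts were close to the 8 of *Sult6b1*. Of 13 other genes 7 had 0 counts in every line, and 2 reached 1 CPM in a line. *Sult6b1*, of another subfamily, had 1.80, 0.405 and 3.38 CPM and was low in line 2 by the 4-fold rule. Its order of lines was that of *Sult1d1*, at a much lower level. *Sult2b1*, a cholesterol sulfotransferase, had 13, 2 and 21 counts, again with line 2 lowest. *Papss1*, one of the synthases of the sulfate donor PAPS, had 35.8, 44.1 and 55.0 CPM, whereas *Papss2* had at most 1 count in a line.

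In the calcium release list, the inositol trisphosphate receptors were expressed in all lines, and the other ryanodine receptors were low. *Itpr3* had 338, 298 and 349 CPM, *Itpr1* 250, 212 and 223 CPM and *Itpr2* 69.9, 76.8 and 60.2 CPM. *Ryr1*, the skeletal muscle form, had 4.28, 2.33 and 1.65 CPM, the reverse order of *Ryr2*. *Ryr3* had 1 count in line 3 and 0 elsewhere. Per kilobase of merged exons, *Ryr2* had 2.01 CPM in line 3, against 38.7 CPM for *Itpr3*, 12.2 CPM for *Itpr1* and 4.07 CPM for *Itpr2*. Several partners of the muscle calcium release unit were at or near 0, and *Asph*, whose products include junctin, had 39.6, 38.0 and 30.4 CPM. *Casq2*, *Trdn* and the junctophilin genes *Jph1*, *Jph2*, *Jph3* and *Jph4* had 0 counts in every line, and *Fkbp1b*, which encodes the FKBP12.6 protein that binds the heart receptor, had 4, 5 and 0 counts. Its paralog *Fkbp1a* had 294, 281 and 296 CPM. The pumps that refill the store were expressed in all lines, with 1257, 794 and 911 CPM for *Atp2a2* and 346, 392 and 294 CPM for *Atp2a3*. The 16 genes of the list with at least 1 CPM in a line had a median shift of -0.09, against 0.0028 over 11495 genes.

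In the glycogen list, 3 of the 4 other subunit genes of phosphorylase kinase were expressed in all lines. *Phka2*, the liver form of the alpha subunit and also X-linked, had 45.3, 49.1 and 108 CPM. *Phkb*, the beta subunit, had 72.0, 60.7 and 59.5 CPM, and *Phkg2*, a catalytic gamma subunit, had 68.1, 69.3 and 67.0 CPM. The muscle gamma subunit *Phkg1* had 0 counts in every line. Per kilobase of merged exons, *Phka1* had 7.98 CPM in line 3, below the 17.8 CPM of *Phka2* in the same line. In lines 1 and 2 *Phka2* was the alpha subunit gene with counts, at 7.46 and 8.09 CPM per kilobase. *Pygb*, the phosphorylase gene with most reads, had 121, 121 and 124 CPM, and *Pygm*, the muscle form, had 8.80, 5.12 and 15.6 CPM. The 15 genes with at least 1 CPM had a median shift of 0.04.

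**Figure D4:**
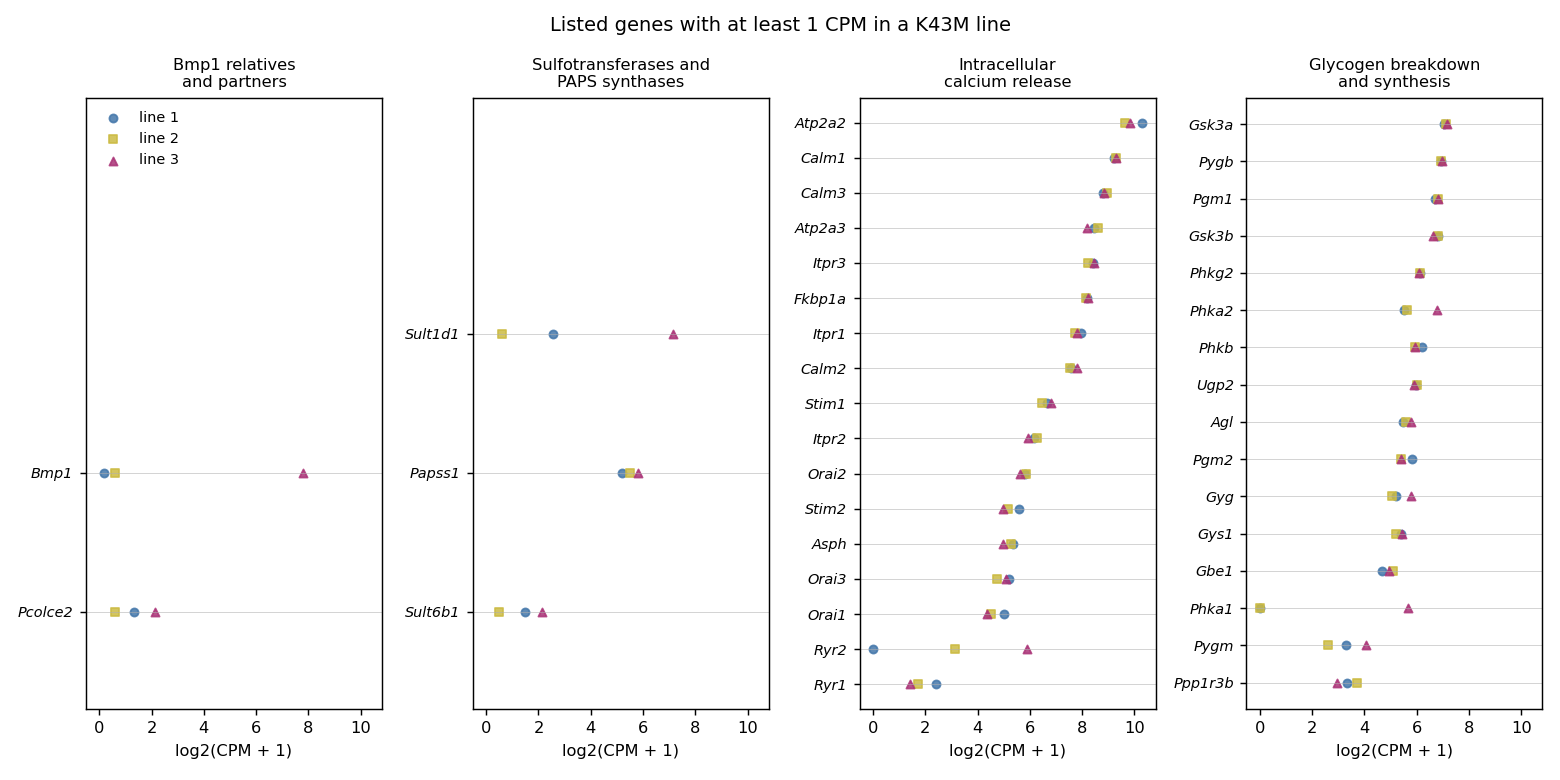
Levels in log2(CPM + 1), on the horizontal axis, of all listed genes with at least 1 CPM in a K43M line, sorted by mean level within each list; circles, squares and triangles are lines 1, 2 and 3, 1 library each. *Bmp1*, *Sult1d1*, *Ryr2* and *Phka1* show the widest spread of their lists, which follows from their choice by range between these lines. Of the other glycogen genes, *Phkg2* lies between 67.0 and 69.3 CPM and *Phka2* between 45.3 and 108 CPM.

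Markers of cell types that normally express the members were examined beside them. Of 11 heart muscle markers, 7 had 0 counts in every line, among them *Nppa*, *Actc1*, *Myl2*, *Myl7* and *Pln*, and the list summed to 0.184, 0.962 and 6.20 CPM. The sum came from *Tnnt2*, a troponin gene, with 1, 16 and 153 counts, which was high in line 3 by the 4-fold rule and had the same order of lines as *Ryr2*. Skeletal muscle markers summed to 14.3, 10.8 and 31.3 CPM, with *Tnnt3* at 25, 7 and 332 counts and also high in line 3. In the same list *Pygm* had 8.80, 5.12 and 15.6 CPM, highest in line 3, and *Mylpf* had 3.96, 5.12 and 2.51 CPM, lowest there. The myosin genes *Myh1*, *Myh2* and *Myh4* and the regulator *Myod1* had 0 counts. Fibroblast and stroma markers had 0 counts in 7 of 9 cases and at most 1 count otherwise. Epithelium and liver markers summed to 3.32, 1.67 and 1.18 CPM, with *Alb*, *Ttr*, *Apoa1*, *Krt8* and *Krt18* at 0, *Epcam* at 2, 1 and 18 counts and *Cdh1* at 70, 32 and 12 counts. Myeloid markers summed to 5.62 to 6.87 CPM, erythroid markers to 2.49 to 6.44 CPM, mast cell and basophil markers to at most 0.275 CPM and T and NK cell markers to at most 0.275 CPM. The part of cells of these types in the levels of the members was not tested.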

How the data were processed

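Raw counts per gene were deposited. To make them, the authors used Trimmomatic, STAR on mm10 and FeatureCounts on the exons of Gencode M13, and merged lanes before mapping. The SENSE mRNA-Seq kit is named in the sample record and the TruSeq kit in the methods of the study. Reads were single-end, 50 bases long. The strand setting and the treatment of reads with several matches are not given in the sources used here. The table holds 6 columns of other samples, which were not used.

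Identifiers of 50462 of 50686 genes were matched to Gencode M21, on the same assembly, and 0 rows named no gene. Counts were scaled with edgeR 4.0.16 (TMM over genes with a summed count of 10 or more) in R 4.3.3 and given as CPM. Tables were made with Python 3.11.15, numpy 2.4.6, pandas 2.3.3 and scipy 1.17.1. Intervals are exact at 95%: Poisson for counts and conditional binomial for ratios. With 1 group and 1 library a line, no test was made. The fold rule was run on simulated counts, in which genes not raised on purpose had the same mean level in every line. Such counts do not show how often real lines differ. Libraries held 19633463 to 25773221 counts. The paper counts its replicates as cell lines, and the sample titles number them as replicates.

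The members and the lists were chosen with earlier results of these data known. Genes named are the members, their 3 nearest expressed neighbours on each side, the tenth and eleventh gene by range, the 3 genes most alike in the share of line 3, paralogs and listed genes. Some genes that this rule names are not reported here. Listed genes and markers beyond paralogs, the unexpressed adjacent genes and the sex-linked genes were chosen for naming with their values known. The alternatives tried were scaling with DESeq2 1.42.0 or by library size, another pseudocount, other filters, folds and windows, and leaving out each line.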

Additional observations from a re-analysis of the deposited data

How the results depend on the processing

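No paired analysis was possible because there is 1 group, of 3 lines. The count of 336 genes high in a single line became 897 with a fold of 2 and 195 with a fold of 8, and the 203 genes low in a single line became 697 and 114. With a line left out, so that the remaining lines are compared, both counts ranged from 283 to 570, highest without line 2 and lowest without line 3. All 4 members were called high in line 3 with a fold of 2, and 3 of them with a fold of 8. The number of members among the 10 genes with the largest range was 4 under DESeq2 size factors, under library size alone and with a minimum mean of 1 CPM, and 3 with a pseudocount of 0.1 CPM, where *Sult1d1* ranked 20. With a line left out it ranged from 0 to 3. It was 0 without line 3, *Ryr2* ranked 79 without line 1 and *Sult1d1* ranked 25 without line 2. The neighbour shift of *Sult1d1* ranged from -0.33 without line 2 to 0.17 without line 1. The shift of *Ryr2* was 0.43, and 0.74 with neighbours within 5 Mb. Leaving out neighbours that were high or low in a single line, an alternative chosen after seeing the data, gave 0.85 for *Phka1*. Depth limits statements on genes near 3 counts, or 0.118 to 0.152 CPM. The cause of these changes was not tested.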

Other observations

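Genes with nearly the same share of their summed CPM in line 3 as a member were found among the 9389 genes with a mean of at least 5 CPM. A share at least as high as that of *Ryr2*, the lowest of the members, was found for 32 genes with the members included. Shares over 3 libraries describe likeness between the lines only.

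Among the closest to *Bmp1*, with 99.7% in line 3, were *Gm10260* with 6, 3 and 4892 counts and the noncoding *Gm42047* with 7, 2 and 2632 counts. Closest to *Sult1d1*, with 96.3%, were *Igkc*, the kappa light chain constant region, with 90, 61 and 4986 counts, *C1ql2* with 13, 7 and 511 counts and *Xist* with 18, 15 and 1350 counts. Closest to *Ryr2*, with 88.2%, were *Ank*, *H19* and *Jag2*. *H19*, an imprinted noncoding RNA, had 1431, 505 and 18052 counts and *Jag2*, a Notch ligand gene, had 213, 123 and 3178 counts. *Ank* had 23, 22 and 405 counts. *H19* and *Jag2* were lowest in line 2, whereas *Ryr2* was lowest in line 1, and *Ank* had 1.06 and 1.11 CPM in lines 1 and 2. Like *Phka1*, *Tcrg-V4*, *Mtus2* and *Stac* had 0 counts in lines 1 and 2, and in line 3 they had 1088, 753 and 519 counts.

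Among the 229 genes high in line 3 alone, the members ranked 3 (*Bmp1*), 8 (*Sult1d1*), 13 (*Ryr2*) and 18 (*Phka1*) by their level in CPM. The median level of the 229 genes in line 3 was 4.75 CPM, and 69 of them had at least 10 CPM.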
